A study of Homo sapiens with 7 samples.

Results

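Cytosolic heat shock chaperones keep newly made and damaged proteins soluble, fold them and pass them on to their partners. Under stress, heat shock factor HSF1, which is held inactive by chaperones in unstressed cells, forms trimers and binds heat shock elements, arrays of the unit nGAAn in alternating orientation that lie in front of chaperone genes. HSP90 also holds many kinases in an active shape, and BCR::ABL1, the fusion kinase that drives chronic myeloid leukemia, is one of its known clients. The genes described here were chosen by name, as HSF1 and its chaperone targets, with earlier results of these data known. They are 10 of the 25702 genes in the count table, namely HSF1, HSPA1A, HSPA1B, HSPA8, HSPH1, HSP90AA1, HSP90AB1, DNAJB1, HSPD1 and HSPE1. All 10 were among the 10452 genes that passed the filter of at least 10 counts per 1000000 counts of the library (CPM) in at least 2 libraries. Not all of them are cytosolic chaperones. HSF1 is the transcription factor, and HSPD1 and HSPE1 encode HSP60 and HSP10, the chaperonin of the mitochondrial matrix.

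Transcriptome sequencing was performed on 7 lines of K562, an established BCR::ABL1-expressing chronic myeloid leukemia cell line. The control lines were drug naive K562 and K562 kept in the DMSO vehicle. The dasatinib resistant (DasR) lines came from 1 course of rising exposure to dasatinib, an inhibitor of ABL and SRC family kinases, and were taken at 10, 15 and 25 nM (early stage intermediates) and at 50 and 200 nM (late stage intermediates). Each line had 1 library, with 20059656 to 27844799 counted reads or fragments, and the lines of a group were used as its replicates, so that every p-value rests on the spread between lines that differ in dose or, in the control group, in the vehicle. The early and late groupings were drawn in the study from clustering of these same libraries. The DasR lines follow from one another, and whether dasatinib was in the medium at harvest was not given in the sources used here.

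The labels call the cells erythroblasts, and all 12 erythroid markers examined had counts in all 7 lines. Their summed level was 4185 and 3799 CPM in the drug naive and DMSO lines, 12432, 14004 and 10883 CPM in the 10, 15 and 25 nM DasR lines, and 6989 and 4934 CPM in the 50 and 200 nM DasR lines. The fetal globin gene HBG2 was the most abundant in 5 lines and the embryonic globin gene HBZ in the 15 and 25 nM DasR lines. In the 25 nM DasR line HBZ and HBG2 were nearly level, at 1917 and 1916 CPM. Markers of T, B, myeloid, fibroblast, epithelial and endothelial cells summed to between 96.0 and 184 CPM. MPO, which defines granulocyte precursors, had at most 3 counts in any library, while LYZ and EPCAM made up most of the sum.

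The promoters are shown because the list was drawn up around HSF1, and its binding unit can be looked for in them. The RefSeq promoter table (build GRCh38.p14, not the build of the counts) held 9 of the 10 genes, with 15 start sites in all and 250 bases before to 50 bases after each start. HSF1 itself had no entry. Pairs of binding units were searched as GAANNTTC and TTCNNGAA, each of which reads the same on both strands, and 3 units in a row as GAANNTTCNNGAA or TTCNNGAANNTTC, which contain the pairs. A pair was found for 7 genes and 3 units for 4 genes, HSPA8, HSP90AA1, HSP90AB1 and HSPD1. Over all 27305 genes of the table, 8.21% had a window with GAANNTTC, 9.46% one with TTCNNGAA and 0.608% one with 3 units, and over its 35116 windows the shares were 6.77%, 7.74% and 0.49%. The windows of HSPH1 and HSPE1 held none of these letters, which says nothing of HSF1 binding at those genes. The following stretches read 5′ to 3′ on the strand of the gene, capitals mark the matched letters, and positions count from the start site.

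The first pair of sequences shows the single match of the twin genes HSPA1A (chr6:31815411-31815470, plus strand, match at -106 to -99) and HSPA1B (chr6:31827607-31827666, plus strand, match at -105 to -98). The stretches differ at 2 of 60 bases, neither of them in the match, and the genes start 12195 bases apart.
HSPA1A: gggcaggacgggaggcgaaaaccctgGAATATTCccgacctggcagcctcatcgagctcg
HSPA1B: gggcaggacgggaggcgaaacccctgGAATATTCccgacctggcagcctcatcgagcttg

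The next sequences show runs of 3 or more units. HSPA8 has one at -230 to -218 (chr11:123062346-123062375, minus strand) and one at -55 to -43 (chr11:123062171-123062200, minus strand). In HSP90AA1 the run lies before the second start listed, with a further pair behind it, at -88 to -61 (chr14:102087104-102087133, minus strand). HSP90AB1 has runs at -165 to -153 (chr6:44247769-44247798, plus strand) and at -112 to -100 (chr6:44247822-44247851, plus strand) of the last of its 3 starts. HSPD1 has an array at -245 to -228 of its second start (chr2:197500061-197500090, minus strand), and its first start lies 105 bases from that of HSPE1, with both genes reading away from each other. By its coordinates this array also lies upstream of the HSPE1 start, beyond the 250 bases searched there. It lies downstream of the first HSPD1 start.
HSPA8 distal: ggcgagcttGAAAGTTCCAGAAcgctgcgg
HSPA8 proximal: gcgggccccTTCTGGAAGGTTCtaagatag
HSP90AA1: cTTCCGGAAGGTTCgggaggcTTCTGGAAa
HSP90AB1 distal: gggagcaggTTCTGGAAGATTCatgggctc
HSP90AB1 proximal: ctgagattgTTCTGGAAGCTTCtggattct
HSPD1: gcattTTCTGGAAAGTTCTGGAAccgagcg

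DNAJB1 is shown for comparison, since it holds only separate pairs. The 2 before its second start lie at -77 to -70 (chr19:14518456-14518485, minus strand) and at -47 to -40 (chr19:14518426-14518455, minus strand), and the window of its last start holds 1 more that is not printed.
DNAJB1 distal: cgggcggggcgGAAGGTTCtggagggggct
DNAJB1 proximal: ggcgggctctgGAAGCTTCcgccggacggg

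To find out which of these genes differed with acquired resistance, the early stage intermediates and then the late stage intermediates were compared with the control lines. Transcripts of 9 of the 10 genes rose in the early stage intermediates, by 1.42- to 7.40-fold, and HSF1 did not pass the test. At the same threshold, a false discovery rate (FDR, Benjamini-Hochberg) of 0.005 over all genes tested in edgeR's quasi-likelihood test, 18.0% of all genes were called and 7.92% were called higher. In the late stage intermediates 8 of the 10 rose, against 7.98% of all genes called and 3.42% called higher. The median log2 fold change of the 10 genes was 1.55 in the early and 1.40 in the late comparison, where the median over all genes tested was 0.00 in both. The comparisons share the control lines and so are not independent of each other. In bulk RNA a larger share of cells with a transcript cannot be told apart from more transcript per cell.

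**Figure D1:**
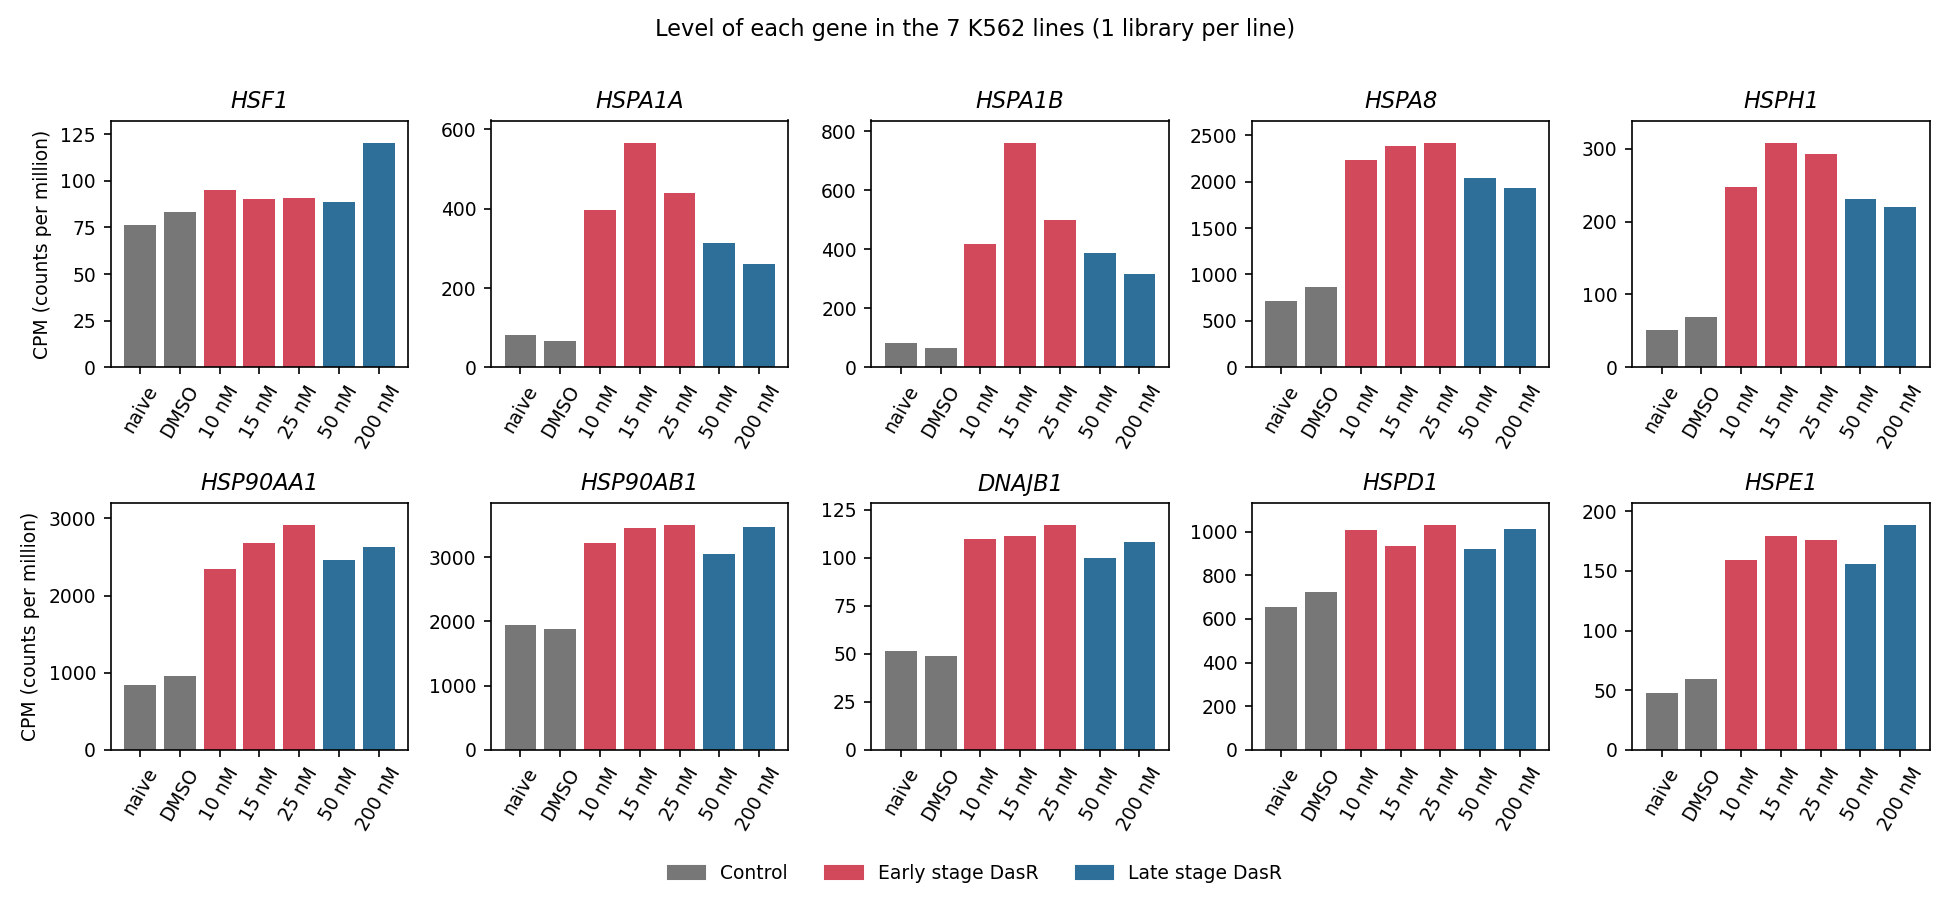
Level of each of the 10 genes in CPM (vertical axes start at 0 and differ between panels) in the 7 K562 lines, 1 library per bar, with control lines in grey, early stage DasR in red and late stage DasR in blue. In each panel all 5 DasR bars stand above both control bars, narrowly for HSF1, whose levels run from 76.2 to 120.3 CPM, while those of HSPA1B run from 67.0 to 761 CPM.

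HSF1, the regulator of the list, had the lowest fitted difference from the control lines of the 10 genes in both stages, although its highest line over its lowest, 1.58-fold, was close to the 1.57-fold of HSPD1. Its level was 76.2 and 83.3 CPM in the drug naive and DMSO lines, 95.0, 90.5 and 90.8 CPM in the 10, 15 and 25 nM DasR lines, and 88.9 and 120.3 CPM in the 50 and 200 nM DasR lines. All DasR lines lay above both controls, but the 50 nM DasR line only just cleared DMSO, and the 200 nM DasR line stood apart from the rest. The log2 difference was 0.19 ± 0.13 (SE) in the early stage intermediates (FDR = 0.244) and 0.37 ± 0.14 in the late stage intermediates (FDR = 0.0753), and neither passed in edgeR's quasi-likelihood test. HSF1 lies on chromosome 8 (145515273 to 145538383, GRCh37) and overlaps DGAT1 on the opposite strand, and the strand setting of the read counting was not given in the sources used here.

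The inducible HSP70 genes HSPA1A and HSPA1B, which encode the same stress-induced protein, had the largest differences of the list. HSPA1A had 82.6 and 66.2 CPM in the drug naive and DMSO lines, 397, 566 and 441 CPM in the 10, 15 and 25 nM DasR lines, and 314 and 262 CPM in the 50 and 200 nM DasR lines. HSPA1B followed the same order, with 82.4 and 67.0 CPM in the control lines, 418, 761 and 501 CPM in the early stage intermediates, and 389 and 316 CPM in the late stage intermediates. The 15 nM DasR line was the highest and DMSO the lowest for both, and no group overlapped another. In edgeR's quasi-likelihood test HSPA1A rose by 2.63 ± 0.20 on the log2 scale in early stage (FDR = 0.000213) and by 1.93 ± 0.21 in late stage intermediates (FDR = 0.00132). For HSPA1B the values were 2.89 ± 0.28 (FDR = 0.000537) and 2.22 ± 0.29 (FDR = 0.0023).

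How reads were divided between HSPA1A and HSPA1B is uncertain. Their coding sequences differ at 4 of 1923 bases and share an identical stretch of 1709 bases, far longer than the 75-base reads. Summed, the pair had 165 and 133 CPM in the drug naive and DMSO lines, 815, 1327 and 942 CPM in the 10, 15 and 25 nM DasR lines, and 703 and 577 CPM in the 50 and 200 nM DasR lines. The sum gave log2 fold changes of 2.77 ± 0.24 in early and 2.08 ± 0.25 in late stage intermediates (FDR = 0.000372 and 0.00176 in edgeR's quasi-likelihood test), so that both calls stand without the division. HSPA1B took 49.9% and 50.3% of the pair's counts in the control lines and 51.3% to 57.4% in the DasR lines.

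HSPA8, the constitutive HSP70 of the cytosol, and HSPH1, an HSP110 that recharges HSP70 with ATP, also rose. HSPA8 had 712 and 866 CPM in the drug naive and DMSO lines, 2237, 2382 and 2417 CPM in the 10, 15 and 25 nM DasR lines, and 2035 and 1933 CPM in the 50 and 200 nM DasR lines. HSPH1 had 51.5 and 68.7 CPM in the control lines, 247, 308 and 293 CPM in the early stage intermediates, and 231 and 219.6 CPM in the late stage intermediates. In both genes every early stage line exceeded every late stage line, and every late stage line exceeded both controls. The log2 fold change of HSPA8 was 1.56 ± 0.10 in early (FDR = 0.000118) and 1.31 ± 0.10 in late stage intermediates (FDR = 0.000553), and that of HSPH1 was 2.22 ± 0.15 (FDR = 0.000152) and 1.89 ± 0.15 (FDR = 0.000668), in edgeR's quasi-likelihood test.

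DNAJB1, a J protein that delivers substrates to HSP70 and starts its ATP cycle, was among the genes of low level. It had 51.4 and 48.9 CPM in the drug naive and DMSO lines, 109.7, 112 and 117 CPM in the 10, 15 and 25 nM DasR lines, and 99.7 and 108 CPM in the 50 and 200 nM DasR lines. The controls lay close together and the late stage lines just below the early stage lines. DNAJB1 rose by 1.15 ± 0.09 in early (FDR = 0.000204) and by 1.03 ± 0.09 on the log2 scale in late stage intermediates (FDR = 0.000887) in edgeR's quasi-likelihood test. DNAJB1 overlaps TECR on the opposite strand, which had 19262 counts over the 7 libraries against 15169 for DNAJB1, and with the strand setting of the counting not given, how reads in the overlap were assigned is not known.

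HSP90 is encoded by the stress-inducible HSP90AA1 and the more constitutive HSP90AB1. HSP90AA1 had 835 and 956 CPM in the drug naive and DMSO lines, 2338, 2685 and 2908 CPM in the 10, 15 and 25 nM DasR lines, and 2461 and 2625 CPM in the 50 and 200 nM DasR lines. HSP90AB1 had 1947 and 1888 CPM in the control lines, 3222, 3451 and 3493 CPM in the early stage intermediates, and 3047 and 3476 CPM in the late stage intermediates. In both genes the early and late stage lines overlapped and the controls lay well below. HSP90AA1 rose by 1.55 ± 0.11 (FDR = 0.000174) and 1.49 ± 0.12 (FDR = 0.000579) on the log2 scale in early and late stage intermediates, and HSP90AB1 by 0.80 ± 0.08 (FDR = 0.000612) and 0.74 ± 0.09 (FDR = 0.00177), in edgeR's quasi-likelihood test. The ratio of HSP90AA1 to HSP90AB1 counts was 0.429 and 0.506 in the control lines and 0.726 to 0.833 in the 5 DasR lines.

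HSPD1 and HSPE1, whose products form the barrel and the lid of the mitochondrial chaperonin, sit head to head on chromosome 2 but did not move by the same amount. HSPD1 had 656 and 722 CPM in the drug naive and DMSO lines, 1008, 936 and 1028 CPM in the 10, 15 and 25 nM DasR lines, and 922 and 1012 CPM in the 50 and 200 nM DasR lines. HSPE1 had 48.0 and 59.2 CPM in the control lines, 159, 179 and 176 CPM in the early stage intermediates, and 156 and 188 CPM in the late stage intermediates. Early and late stage lines overlapped for both genes, and the 200 nM DasR line was the highest of all for HSPE1. HSPD1 rose by 0.51 ± 0.09 on the log2 scale in early stage intermediates (FDR = 0.00352), while its late stage difference of 0.47 ± 0.09 (FDR = 0.00992) did not pass the 0.005 threshold, and HSPE1 rose by 1.67 ± 0.12 (FDR = 0.000193) and 1.66 ± 0.13 (FDR = 0.000619), in edgeR's quasi-likelihood test. The ratio of HSPD1 to HSPE1 counts fell outside the control range in every DasR line, from 13.7 and 12.2 in the drug naive and DMSO lines to between 5.22 and 6.34. The 2 genes overlap in the annotation on opposite strands, and 26 pseudogenes of HSPE1 and 18 of HSPD1 are annotated. The pseudogenes of HSPE1 in the count table held 0.507% as many counts as HSPE1 itself, and the table lists none of those of HSPD1.

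**Figure D2:**
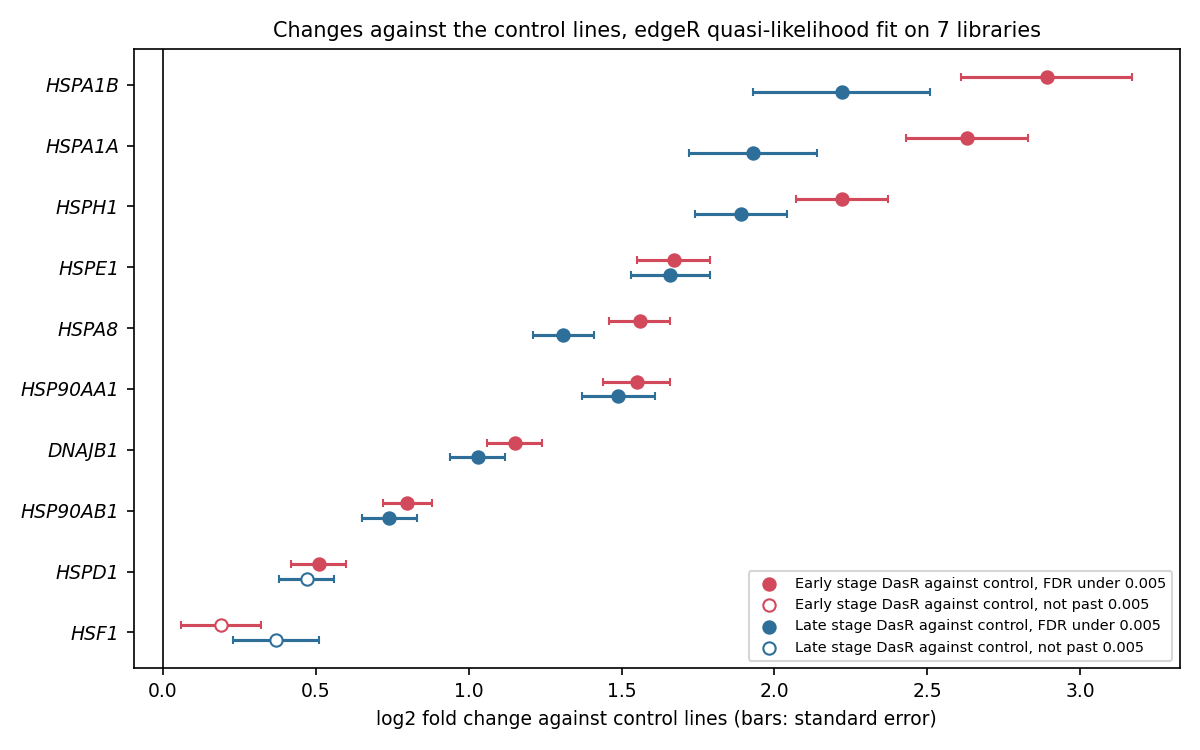
Log2 fold change of each of the 10 genes against the control lines in early stage (red) and late stage (blue) DasR intermediates, with bars of 1 standard error from the edgeR fit. Filled points passed an FDR of 0.005. The open points are HSF1 in both comparisons and HSPD1 in the late one, and the points run from 0.19 for HSF1 to 2.89 for HSPA1B.

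Each early stage line exceeded both control lines for all 10 genes, as was so for 35.9% of all genes tested, and each late stage line did so too for all 10, against 34.3% of all genes. The late calls depended on the control lines. Without the drug naive line none of the 10 passed in the late stage intermediates (30 genes of the whole table did), without the DMSO line 3 passed (95 of the whole table), without the 50 nM DasR line 5 passed (301), and without the 25 or the 200 nM DasR line 6 passed (276 and 292), against 834 genes of the table with all lines. In the early comparison 6 of the 10 passed without the drug naive line (187 of the whole table) and without DMSO (461), against 1881 genes of the table with all lines. HSPA1B, HSP90AB1 and HSPD1 were no longer called in these fits, and HSPD1 also missed the threshold without any 1 of the early stage lines. Log2 fold changes of the 9 chaperone genes stayed positive in every such fit.

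Per length the order of the genes themselves changed. In CPM per kilobase of the deposited gene length (RPKM), the mean level in the control lines was highest for HSP90AB1 at 756 RPKM, followed by HSPA8 at 349, HSPD1 at 283 and HSP90AA1 at 219.8 RPKM. A wide gap separated these from HSPE1 at 56.2 RPKM, HSF1 at 37.1, HSPA1A at 30.6, HSPA1B at 29.6, DNAJB1 at 22.5 and HSPH1 at 16.4 RPKM. In the early stage intermediates HSP90AB1 (1335 RPKM) and HSPA8 (1037 RPKM) still led, HSP90AA1 (649 RPKM) passed HSPD1 (407 RPKM), and HSPA1B (222 RPKM) and HSPA1A (193 RPKM) came next. HSF1, at 42.8 RPKM, was then the lowest of the list, below DNAJB1 at 50.5 and HSPH1 at 77.1 RPKM. Neighbours in this order mostly did not overlap, but HSPA1A (34.0 and 27.2 RPKM) and HSPA1B (32.7 and 26.6 RPKM) did in the control lines and again in the early stage intermediates, at 163 to 233 and 166 to 302 RPKM, and both overlapped HSPE1 in the early stage intermediates, where HSPE1 ran from 167 to 188 RPKM.

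Together the 10 genes took 0.454% and 0.483% of all counts in the drug naive and DMSO lines, 1.02%, 1.15% and 1.15% in the 10, 15 and 25 nM DasR lines, and 0.974% and 1.03% in the 50 and 200 nM DasR lines. HSP90AB1 was the most abundant of them in all 7 lines, and its part of their sum went from 42.9% and 39.1% in the control lines to between 30.1% and 33.9% in the DasR lines. The erythroid marker sum above was also higher in all DasR lines than in the controls and was highest in the 15 nM DasR line, but it came down to 4934 CPM at 200 nM, where the 10 genes still summed to 10258 CPM against 4542 and 4825 CPM in the controls. Whether that marker difference had a part in the chaperone levels was not tested.

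To find out whether the chaperone levels came down again later in dose escalation, the late stage intermediates were compared with the early stage intermediates. No gene of the whole table passed an FDR of 0.005 in edgeR's quasi-likelihood test (the smallest FDR was 0.0167), although 3450 genes had an unadjusted p under 0.05, 1135 passed in DESeq2 and none in limma-voom. HSPA1A had a log2 difference of -0.70 ± 0.18 (FDR = 0.0491 in edgeR's quasi-likelihood test), the only 1 of the 10 genes under 0.05, where 12.7% of all genes were called at that level and 6.10% were called lower. The summed counts of HSPA1A and HSPA1B gave -0.69 ± 0.22 (FDR = 0.0814 in edgeR's quasi-likelihood test). The call of HSPA1A at 0.05 thus did not stand without the uncertain division of reads. HSPA1B, with -0.67 ± 0.25 (FDR = 0.118), HSPH1, with -0.33 ± 0.14 (FDR = 0.137), and HSPA8, with -0.25 ± 0.09 (FDR = 0.110), did not pass in edgeR's quasi-likelihood test. For these genes and for DNAJB1, at -0.12 ± 0.08, every early stage line lay above every late stage line, which held for 26.4% of all genes tested. The remaining values were 0.18 ± 0.12 for HSF1, -0.06 ± 0.10 for HSP90AA1, -0.06 ± 0.08 for HSP90AB1, -0.04 ± 0.09 for HSPD1 and 0.00 ± 0.12 for HSPE1, and their lines overlapped. A difference that misses the threshold here does not show equal levels.

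Across the 7 lines the 9 chaperone genes varied together. As a description, Pearson's correlation of log2 CPM was between 0.89 and 1.0 in the 36 pairs without HSF1 (median 0.97) and between 0.46 and 0.71 in the 9 pairs with HSF1 (median 0.63). These 7 points share the control lines, the depth of each library and the large step between control and DasR lines, which many genes show. Each of the 9 chaperone genes had 280 to 523 other genes with a correlation over 0.95, and HSF1 had 12. The gene most like HSPA1A was HSPA1B (0.9967), that most like HSPA8 was GEMIN5 (0.9992), that most like HSP90AA1 was ABCF1 (0.9983) and that most like HSF1 was FBXW9 (0.9738).

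The lists of other chaperone genes had lower median log2 fold changes than the 10 genes, and not all of the same sign. Of 12 other HSP70 genes and nucleotide exchange factors tested (16 listed), 3 rose and 2 fell in the early stage intermediates and 1 rose and 1 fell in the late stage intermediates, with median log2 fold changes of 0.28 and 0.53. Of all genes tested, 7.92% rose and 10.1% fell in the early and 3.42% rose and 4.56% fell in the late stage intermediates, and with so few genes a list these counts describe the genes named and not the group. BAG1, which releases nucleotide from HSP70, rose by 0.92 ± 0.11 in the early stage intermediates (FDR = 0.00105), and HSPA4, a relative of HSPH1, rose by 0.50 ± 0.09 in early and 0.65 ± 0.10 in late stage intermediates (FDR = 0.0039 and 0.00356). HSPA13, an HSP70 of the endoplasmic reticulum, went the other way, from 123 and 115 CPM in the drug naive and DMSO lines to 44.8, 36.8 and 43.0 CPM in the 10, 15 and 25 nM DasR lines and 52.9 and 67.1 CPM in the 50 and 200 nM DasR lines. It fell by 1.54 on the log2 scale in early and by 1.02 in late stage intermediates (SE 0.13 and 0.15, FDR = 0.000348 and 0.00356 in edgeR's quasi-likelihood test). BAG6, the most abundant of the list, had -0.07 ± 0.07 and -0.03 ± 0.08.

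HSPA6, a strictly stress-inducible HSP70 gene, ran against HSPA1A and HSPA1B. It had 12.9 and 16.6 CPM in the drug naive and DMSO lines, 3.24, 2.73 and 4.69 CPM in the 10, 15 and 25 nM DasR lines, and 12.8 and 26.6 CPM in the 50 and 200 nM DasR lines. Its early stage lines were the lowest, where HSPA1A and HSPA1B were highest, and its late stage lines spanned the controls. HSPA6 fell by 2.08 on the log2 scale in early stage intermediates (SE 0.35, FDR = 0.00348), while its late stage difference from the controls was 0.39 ± 0.38 (FDR = 0.451) and its late against early difference was 2.47 ± 0.35 (FDR = 0.0167, past 0.05 but not 0.005, in edgeR's quasi-likelihood test). The early call was lost when any 1 control or early stage line was left out. These were 76 to 574 counts per library, and HSPA6 has a closely similar pseudogene, HSPA7, with which reads may be shared.

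**Figure D3:**
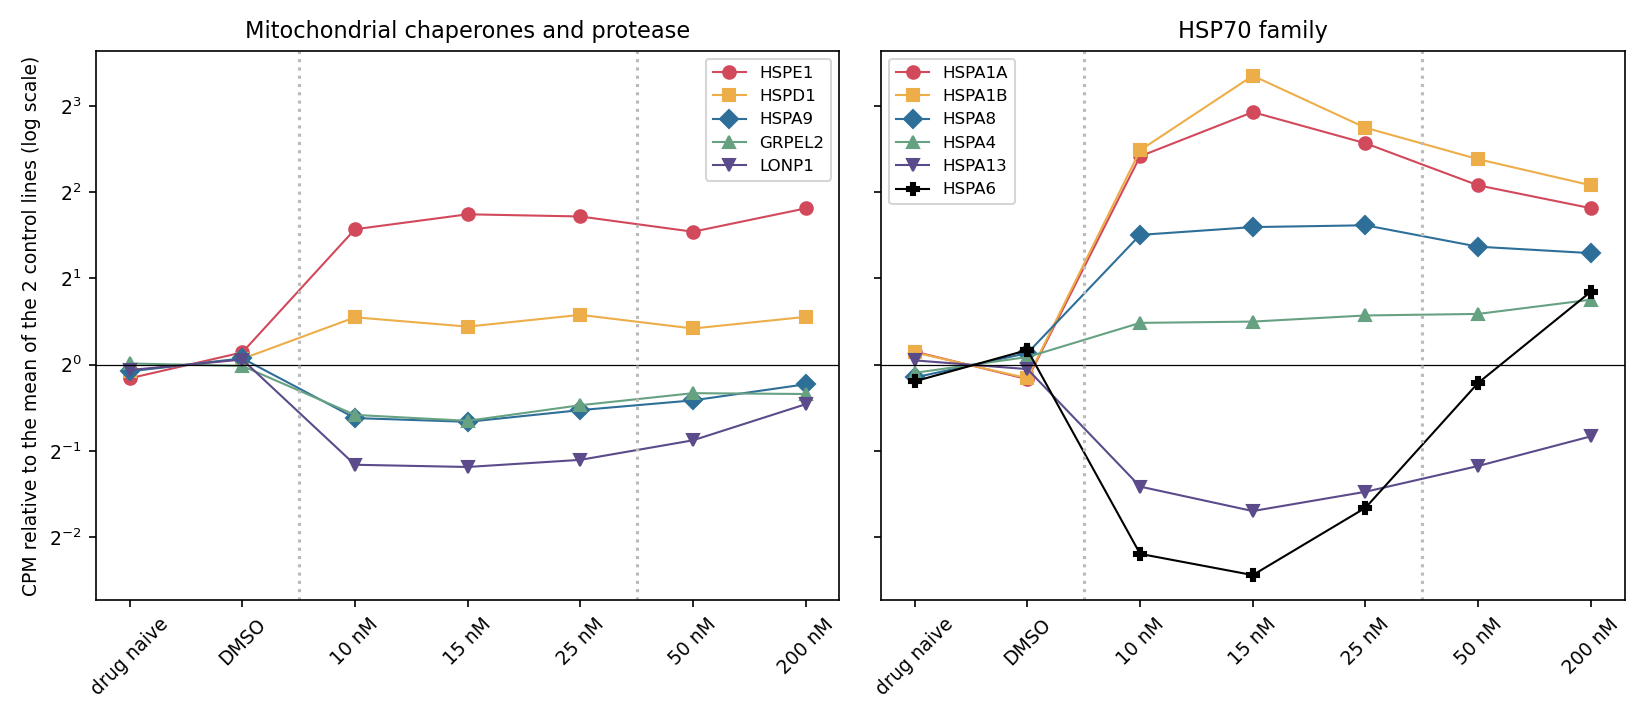
CPM of each gene relative to the mean of the 2 control lines (log scale) in the 7 lines, which are spaced evenly and not by dose, with dotted lines between control, early stage and late stage lines. At left HSPE1 and HSPD1 lie above the control mean in all DasR lines while HSPA9, GRPEL2 and LONP1 lie below it; at right HSPA1A, HSPA1B, HSPA8 and HSPA4 lie above it, HSPA13 lies below it, and HSPA6 is lowest at 15 nM (2.73 CPM) and highest at 200 nM (26.6 CPM).

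Among 12 other cytosolic and nuclear J proteins tested (16 listed), 3 rose and 1 fell in early and 1 rose in late stage intermediates, with medians of 0.29 and 0.17, beside 7.92% of all genes that rose and 10.1% that fell in early and 3.42% that rose in late stage intermediates. The 1 that fell in early and the 1 that rose in late stage intermediates are near those shares. DNAJA1, a J protein partner of HSPA8, had 79.2 and 90.4 CPM in the drug naive and DMSO lines, 234, 250.2 and 261 CPM in the 10, 15 and 25 nM DasR lines, and 268 and 229.7 CPM in the 50 and 200 nM DasR lines. It rose by 1.54 ± 0.11 and 1.53 ± 0.12 on the log2 scale (FDR = 0.000176 and 0.000551 in edgeR's quasi-likelihood test), close to HSP90AA1. DNAJB4 (0.67 ± 0.12) and DNAJC8 (0.42 ± 0.08) rose in the early stage intermediates (FDR = 0.00458 and 0.00485), and DNAJC7, which also binds HSP90, fell by 0.56 (SE 0.10, FDR = 0.0038).

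HSP90 acts with co-chaperones, and of 17 tested (18 listed) 3 rose and none fell in either stage, with medians of 0.43 and 0.48. Over all genes 7.92% rose and 10.1% fell in early and 3.42% rose and 4.56% fell in late stage intermediates, so that the absence of genes that fell is not read as a result about the co-chaperones. AHSA1, the activator of HSP90's ATPase, had 43.7 and 48.7 CPM in the control lines, 103, 120.4 and 118 CPM in the early stage intermediates and 92.6 and 113 CPM in the late stage intermediates. Its log2 fold change was 1.28 ± 0.12 in early and 1.13 ± 0.13 in late stage intermediates (FDR = 0.000443 and 0.00141 in edgeR's quasi-likelihood test). CHORDC1, a stress-inducible HSP90 partner, rose by 1.07 ± 0.13 and 1.31 ± 0.14 (FDR = 0.00112 and 0.00133), and STIP1, which links HSP70 to HSP90, by 0.89 ± 0.10 and 0.96 ± 0.11 (FDR = 0.000851 and 0.00149). STIP1 was the most abundant of the list in all 5 DasR lines, at 389 to 459 CPM, whereas ST13 led in both control lines.

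The cytosolic chaperonin TRiC and prefoldin, which fold actin and tubulin, had 14 genes tested of 14, of which 2 rose in early and none in late stage intermediates, with medians of 0.24 and 0.35. These counts are near the 7.92% and 3.42% of all genes that rose. TCP1 rose by 0.85 ± 0.12 and CCT2 by 0.65 ± 0.10 in the early stage intermediates (FDR = 0.00201 and 0.00224 in edgeR's quasi-likelihood test), while the abundant subunit CCT8 had 0.13 ± 0.09. Of 9 small heat shock protein genes only HSPB1 passed the filter, with 70.8 and 84.9 CPM in the control lines, 154, 149 and 125 CPM in the early stage intermediates and 126 and 143 CPM in the late stage intermediates. It rose by 0.86 ± 0.13 in early stage intermediates (FDR = 0.00213), and its late stage difference was 0.77 ± 0.14 (FDR = 0.00663).

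Other chaperones and proteases of mitochondria gave mixed values. Of 14 tested (15 listed) none rose at an FDR of 0.005, where 7.92% of all genes rose in early and 3.42% in late stage intermediates, so that a count of 0 is near the share of all genes. In the early stage intermediates 3 fell and in the late stage intermediates none, beside 10.1% and 4.56% of all genes that fell. The median log2 differences were -0.12 and -0.08. At an FDR of 0.05 there were 2 higher and 4 lower in early and 3 higher and 5 lower in late stage intermediates. At that FDR 4865 of all 10452 genes tested were called in either direction in early and 3542 in late stage intermediates. These counts are not read as a result about the group. LONP1, the matrix protease, had 479 and 521 CPM in the drug naive and DMSO lines, 224, 219.9 and 233 CPM in the 10, 15 and 25 nM DasR lines, and 272 and 364 CPM in the 50 and 200 nM DasR lines. It fell by 1.16 on the log2 scale in early stage intermediates (SE 0.12, FDR = 0.000614), as did HSPA9, the mitochondrial HSP70, by 0.62 (SE 0.09, FDR = 0.00202), and GRPEL2, its nucleotide exchange factor, by 0.58 (SE 0.09, FDR = 0.00238). In the late stage intermediates the values were -0.67 ± 0.13 (FDR = 0.00963), -0.34 ± 0.10 and -0.36 ± 0.10, all short of the threshold in edgeR's quasi-likelihood test.

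**Figure D4:**
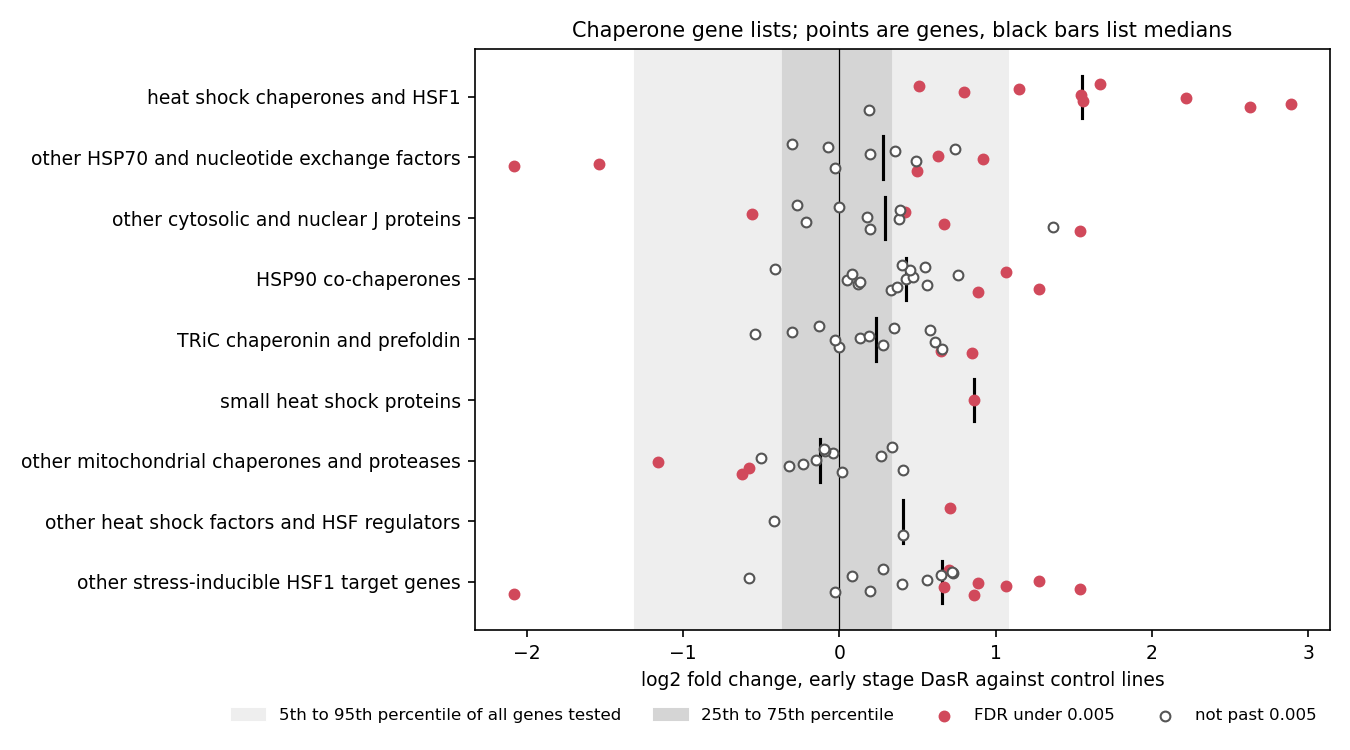
Log2 fold change of early stage DasR intermediates against the control lines for each tested gene of 9 lists, with red points past an FDR of 0.005, white points not past it, black bars at list medians and grey bands for the middle of all 10452 genes tested. The median is 1.55 for the 10 genes described here and between -0.12 and 0.86 for the other lists, 1 of which holds a single gene, and some genes stand in more than 1 list.

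Of the other heat shock factors and their regulators, 3 of 4 genes were tested. HSBP1, a small protein that binds HSF1 trimers, rose by 0.71 ± 0.10 in early and 0.69 ± 0.10 in late stage intermediates (FDR = 0.00157 and 0.00373 in edgeR's quasi-likelihood test). HSF2, a factor related to HSF1, had 28.4 and 30.8 CPM in the control lines, 37.6, 41.2 and 40.6 CPM in the early stage intermediates and 32.5 and 29.8 CPM in the late stage intermediates, with differences of 0.41 ± 0.10 (FDR = 0.0129) and 0.05 ± 0.11 that did not pass.

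A wider list of 21 other stress-inducible genes known as HSF1 targets, which shares members with the lists above, had 18 tested. In the early stage intermediates 7 rose and 1 (HSPA6) fell, and in the late stage intermediates 4 rose and none fell, with medians of 0.66 and 0.54, beside 7.92% of all genes that rose and 10.1% that fell in early and 3.42% and 4.56% in late stage intermediates. DNAJA1, AHSA1, CHORDC1 and STIP1 led it, and UBB, a ubiquitin gene and the most abundant of the genes listed, had 0.08 ± 0.08 and -0.04 ± 0.08. Of the immediate early genes, which respond to handling and serum, 9 of 15 were tested. None was called higher in either stage, beside 7.92% and 3.42% of all genes, a count too small to be read as a result about the group. Their median log2 difference was -0.34 in the early and -0.35 in the late stage intermediates. At an FDR of 0.05, 1 was higher and 4 lower in early and 1 higher and 3 lower in late stage intermediates. Of all 10452 genes tested, 4865 were called in either direction at that FDR in early and 3542 in late stage intermediates. These counts too are not read as a result about the group. ATF3 fell by 1.96 on the log2 scale in early stage intermediates (SE 0.23, FDR = 0.000954 in edgeR's quasi-likelihood test), EGR1 had -0.28 ± 0.45 and JUNB had 0.34 ± 0.10 (FDR = 0.0309). None passed in the late stage intermediates, where EGR1 had 1.31 ± 0.50 (FDR = 0.0790) and JUNB 0.58 ± 0.11 (FDR = 0.0092). The 200 nM DasR line stood apart, with 457 CPM of EGR1 against 77.7 and 183 CPM in the drug naive and DMSO lines and 76.9 to 198 CPM in the other DasR lines. The 15 immediate early genes summed to 835 CPM there, against 513 and 595 CPM in the control lines and 369 to 547 CPM in the other DasR lines, and whether this had a part in the chaperone levels of that line was not tested.

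Of the 12 erythroid markers 4 rose in early and 1 in late stage intermediates, beside 7.92% and 3.42% of all genes. Their median log2 difference was 1.18 in early stage intermediates, where 11 were positive and 10 were higher at an FDR of 0.05. It was 0.39 in late stage intermediates, where 10 were positive and 1 was higher at that FDR. Over all 10452 genes tested, 4865 were called in either direction at an FDR of 0.05 in early and 3542 in late stage intermediates. The median of the 10 genes of the main list was 1.55 and 1.40, and whether the erythroid shift had a part in it was not tested. TFRC, the transferrin receptor, rose in both, by 1.13 ± 0.12 and 0.85 ± 0.13 (FDR = 0.000677 and 0.00373), and HBG1 rose in the early stage intermediates by 1.24 ± 0.19 (FDR = 0.0024). The near-identical HBA1 and HBA2 rose by 3.06 ± 0.56 and 3.51 ± 0.57 there (FDR = 0.00469 and 0.00307 in edgeR's quasi-likelihood test). HBG2 had 1.17 ± 0.23 (FDR = 0.00658). Of the markers of other cell types, PECAM1, EPCAM and LYZ were tested and none passed in either stage. Calls of the genes outside the main list rested on few lines too. Of 23 such named genes called in the early stage intermediates, 2 (DNAJA1 and TFRC) still passed without the drug naive line, 7 without DMSO, and 12, 9 and 8 without the 10, 15 and 25 nM DasR lines. Of 8 called in the late stage intermediates, none passed without the drug naive line, DNAJA1 alone passed without DMSO and without the 200 nM DasR line, and 4 passed without the 50 nM DasR line.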

How the data were processed

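Per the labels' protocol RNA was depleted of ribosomal RNA, while their molecule field reads polyA RNA, so that the selection of RNA is uncertain. Libraries were directional and sequenced as paired reads of 75 bases. Alignment was to hg19 with STAR, and the authors deposited raw counts per gene from featureCounts (versions and strand setting are not given in the sources used here), together with a gene length in bases, an annotation value that was used for RPKM. Counts of 7 libraries, 20059656 to 27844799 each, were used as deposited, and 0 per-sample columns were left unused. The deposited tables of the authors' own comparisons (fold change, mean level, p-value and FDR columns) were used for gene symbols and the gene length only.

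CPM are counts per 1000000 of the library total. Tests used edgeR 4.0.16 in R 4.3.3 (glmQLFit and glmQLFTest, TMM scaling, 1 coefficient per group over all 7 libraries, at least 10 CPM in at least 2 libraries, FDR 0.005 over 10452 genes), and fold changes come from this fit. A standard error is the absolute log2 fold change over the square root of F. Libraries of the same group differed beyond counting noise (chi-square per degree of freedom 21.1 to 70.2) and so were not counted as 1 library deposited more than once, though repeat preparations of a sample would differ as well. The labels name no batch. Alternatives used limma 3.58.1 and DESeq2 1.42.0. The scripts were tested on simulated data.

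The genes and all lists were chosen with earlier results of these data known. Named from each other list were up to 4 genes past the threshold in any comparison by smallest p, otherwise the 2 with the smallest p, and the most abundant gene. Coordinates of genes are GRCh37, and promoter sequences and starts are RefSeq's on GRCh38.p14. A gene of the wider HSF1 target list is not reported here, and that list is described without it.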

Additional observations from a re-analysis of the deposited data

How the results depend on the processing

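All 10 genes kept the sign of both differences from the control lines under every alternative. Over the 3 comparisons, 435 of 474 values of these genes kept their direction and side of the threshold, 31 lost the call, 4 gained one and 4 reversed, and for the other named genes 1377, 137, 44 and 19 of 1577 did. In the early comparison 1881 genes were called, 3548 with DESeq2, 4865 at an FDR of 0.05 and 187 to 2074 with 1 library left out (6 to 9 of the 10). In the late comparison 834 were called, 2503 with DESeq2, 1287 with no filter, 335 with only the 2 groups fitted, 3542 at an FDR of 0.05 and 30 to 601 with 1 library left out (0 to 8 of the 10). Between late and early stage no gene was called, but 1135 (1 of the 10, HSPA1A) with DESeq2, 295 with no filter, 1328 (1 of the 10) at an FDR of 0.05, and 0 to 200 with 1 library left out. HSPD1 also lost its early call at a 1 CPM filter and without any single control or early stage line, and HSP90AB1 its late call with only the 2 groups fitted.

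The reversals were of uncalled log2 values, most near 0. With 1 library left out, early against control values ran from -0.77 to 0.41 for EGR1 and -0.53 to 0.59 for LYZ. Late against control they ran from -0.22 to 0.82 for HSPA6 and -0.02 to 0.13 for HSF2. Late against early they ran from -0.05 to 0.37 for HSF1, -0.14 to 0.01 for HSP90AA1, -0.15 to 0.02 for HSP90AB1, -0.10 to 0.01 for HSPD1, -0.11 to 0.01 for DNAJB4, -0.01 to 0.15 for STIP1, -0.09 to 0.07 for CCT8 and -0.10 to 0.06 for HSBP1. With no filter BAG6 had 0.02 and UBB 0.01 in late against control, and late against early DNAJC8 had 0.01, CCT8 0.03 and HSBP1 0.02, while at a 1 CPM filter CCT8 had 0.02 and HSBP1 0.01. The cause was not tested. Where a control or late stage line was left out, the lone line of the group was assumed to vary like the others. No paired analysis was possible because each line had 1 library and the labels name no matched lines.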
